A study of Mus musculus with 3 samples.

Results

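The nuclear oxidative phosphorylation genes encode the respiratory chain complexes I to IV, cytochrome c, the ATP synthase and some of the factors that assemble them. They were taken by name from the deposited tables, as every symbol that starts with Nduf, Uqcr, Atp5 or Cox followed by a digit, together with Sdha, Sdhb, Sdhc, Sdhd, Cyc1 and Cycs, and without pseudogenes (names with -ps). The rule found 100 of the 17250 gene names, and 97 of the 100 were expressed, that is, at 1 RPKM or more on average over the libraries, beside 11144 such genes in all. RPKM is the number of reads per 1000 bases of the gene and per 1000000 reads on genes. The expression was measured in BM (bone marrow) cells of C57BL/6 mice of 6 to 8 weeks that were given recombinant LECT2, a secreted protein, under the skin at 300.0 µg per kg of body weight, once daily for 0, 3 or 5 days. The cells were flushed from femur, tibia, pelvis and humerus and were not sorted. There was 1 RNA-seq library per time point, so that no difference below has a replicate check, and the number of mice behind a library is not given in the sources used here. All 3 comparisons between time points share libraries with each other, which is why each is given with its own values and their likeness is not counted as support.

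In the mitochondrial inner membrane, complexes I and II pass electrons from NADH and succinate to ubiquinone, and complex III and cytochrome c carry them on to complex IV, which reduces oxygen. Complexes I, III and IV pump protons, and the ATP synthase uses the resulting gradient to make ATP. Most subunits are encoded in the nucleus and imported, while a small catalytic core is encoded by mitochondrial DNA. In the marrow, dividing progenitors and erythroid precursors are rich in mitochondria, and mature neutrophils rely mainly on glycolysis.

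The tables held 15146983 to 15523952 reads on genes per library. The 10 genes with the most reads took 12.5%, 10.4% and 5.38% of them at 0, 3 and 5 days, and none of the oxidative phosphorylation genes was among the 100 most abundant genes. Of the markers checked for the labelled tissue, Itgam, Cd79a, Cd79b and Sfpi1 had between 3995 and 19102 reads in each library, whereas Ptprc, which nearly all leukocytes express, had 82, 410 and 557 reads. Whether reads of Ptprc were lost in the counting was not tested. The 26 names looked for among the mitochondrially encoded subunits had no row, and these genes were not analysed here.

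Many respiratory genes are known to be driven by the factors NRF1, GABP (an ETS family factor), YY1, SP1 and ERR alpha. RefSeq promoter windows on GRCm38.p6, of 300 bases with 250 before and 50 after the transcript start, were found for 82 of the 100 genes, and 5 short motifs were searched in them on both strands. The NRF1 core CGCATGCG lay in the windows of 12 of the 82 genes (14.6%), compared with 4.43% of 8865 expressed genes and 2.07% of all 27025 genes with a window. The YY1 motif AAGATGGC was also found in 12 genes (14.6%), against 5.72% of the expressed genes. The ETS motif CCGGAAGT lay in 9 genes (10.98%, against 9.72%), and the SP1 motif GGGGCGGGG in 14 genes (17.1%, against 24.7%). The ERR motif TCAAGGTCA lay in 2, Atp5g3 and Sdhd (2.44%, against 0.282%). The NRF1 core reads the same on both strands, no matches of different motifs overlapped in these windows, and a match is a description of the letters, not a bound site. The windows below show, 5′ to 3′ on the strand of the gene, the 100 bases before and 20 after the RefSeq start of 6 genes whose NRF1 core, in capitals, lies in this stretch. They are shown because, of the motifs found in more than 2 genes, this core set the group furthest from the expressed genes. Capitals also mark the ETS motif of Uqcr11, while an SP1 motif on the opposite strand of Atp5g2 is left in lower case. The start sites of Cycs and Ndufa11 differ between RefSeq and the GENCODE transcripts.
Ndufa8, chr2:36049319-36049438, minus strand: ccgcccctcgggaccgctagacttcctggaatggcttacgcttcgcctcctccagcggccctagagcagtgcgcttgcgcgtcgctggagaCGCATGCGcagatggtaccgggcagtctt
Ndufa11, chr17:56717662-56717781, plus strand: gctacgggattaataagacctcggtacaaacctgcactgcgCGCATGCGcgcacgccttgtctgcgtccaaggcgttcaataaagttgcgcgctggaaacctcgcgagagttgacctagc
Uqcr11, chr10:80406802-80406921, minus strand: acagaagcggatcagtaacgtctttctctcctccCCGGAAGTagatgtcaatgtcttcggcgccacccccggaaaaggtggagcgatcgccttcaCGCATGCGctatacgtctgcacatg
Cycs, chr6:50566550-50566669, minus strand: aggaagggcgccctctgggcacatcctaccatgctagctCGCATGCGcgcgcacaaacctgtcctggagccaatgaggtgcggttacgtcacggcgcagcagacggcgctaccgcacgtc
Atp5g2, chr15:102671028-102671147, minus strand: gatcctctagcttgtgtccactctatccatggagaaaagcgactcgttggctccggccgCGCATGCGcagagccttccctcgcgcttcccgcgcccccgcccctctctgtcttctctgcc
Atp5k, chr5:108434380-108434499, minus strand: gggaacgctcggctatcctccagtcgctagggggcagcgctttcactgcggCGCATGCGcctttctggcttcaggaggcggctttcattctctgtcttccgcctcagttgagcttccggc

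The 6 genes differed among themselves in the libraries despite the shared core. Ndufa8, an accessory subunit of complex I, was at 65.1, 56.1 and 60.5 RPKM at 0, 3 and 5 days, and Atp5g2, a gene for the c ring of the ATP synthase, was at 368, 208 and 230.2 RPKM. Over the 12 genes with the NRF1 core, the median log2 ratio against 0 days was −0.33 at 3 days and −0.17 at 5 days, and over 69 genes with a window but no core it was −0.49 and −0.33. After adjustment for gene length, which is described below, the medians were −0.11 and −0.02 with the core and −0.05 and 0.02 without it. No test of these differences was made.

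**Figure D1:**
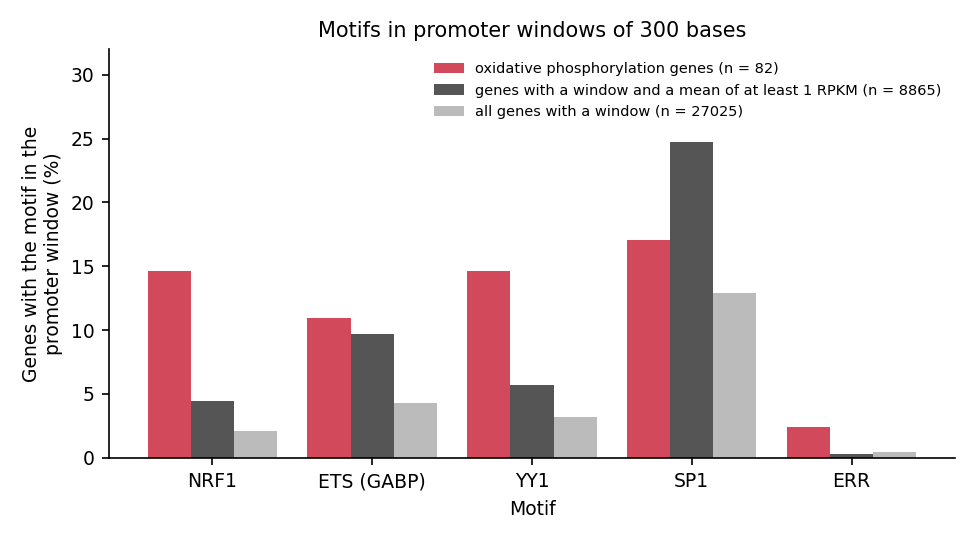
Share of genes (percent) whose promoter window of 300 bases holds each motif, for 82 oxidative phosphorylation genes, 8865 expressed genes and all 27025 genes with a window. The bars for NRF1 and YY1 stand at 14.6% in the oxidative phosphorylation genes and at 4.43% and 5.72% in the expressed genes.

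With the deposited RPKM, expression of most oxidative phosphorylation genes was lower at 3 days than at 0 days and partly higher again at 5 days. Together they took 0.880% of the reads on genes at 0 days (exact 95% binomial interval 0.875 to 0.885%), 0.661% at 3 days (0.657 to 0.665%) and 0.770% at 5 days (0.765 to 0.774%). These intervals, like all intervals below, cover counting error only, since amplified reads were not marked by molecule and are not independent. Their RPKM summed to 10831 at 0 days and to 7438 and 8240.0 at the later times. As a share of the RPKM of all genes, however, it was 1.69%, 1.37% and 1.75%. The share of reads was thus lowest at 3 days, and the share of RPKM at 5 days was not below that at 0 days. In a bulk sample, fewer cells of a type and less RNA per cell cannot be told apart.

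At 3 days against 0 days the median log2 ratio (of RPKM + 0.1, which understates the difference of low genes) over the 97 genes was −0.45, while that of all 11144 genes was 0.10. The ratio was below 0 in 91 of the 97 genes (all genes 42.3%) and above 0 in 6 (all genes 57.7%). It was at least 2-fold lower in 4 (all genes 1.97%) and at least 2-fold higher in 0 (all genes 3.82%). At 5 days against 0 days the median was −0.32, compared with 0.31 over all genes. There 69 of 97 were lower (all genes 32.4%) and 28 higher (all genes 67.6%), and 6 were at least 2-fold lower (all genes 5.41%) and 0 at least 2-fold higher (all genes 15.1%). From 3 to 5 days the median was 0.15, compared with 0.25 over all genes, and 27 of 97 were lower (all genes 27.1%) and 70 higher (all genes 72.9%), with 0 at least 2-fold lower (all genes 3.33%) and 0 at least 2-fold higher (all genes 1.65%). The count of lower genes thus stood well above that of all genes in both comparisons with 0 days and near it from 3 to 5 days. Past 2-fold at 5 days, the share of lower genes was near that of all genes, whereas none was higher. Relative to the median of all genes, the oxidative phosphorylation genes stood at −0.55 on the log2 scale at 3 days, at −0.63 at 5 days and at −0.09 from 3 to 5 days.

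The scaling of the libraries shifted these values. With TMM scaling (edgeR) the median of all genes was 0.02 at 3 days and 0.01 at 5 days, and that of the oxidative phosphorylation genes −0.54 and −0.63, so that their distance from all genes was −0.55 and −0.64. Lower genes then numbered 92 of 97 at 3 days (all genes 48.8%) and 84 of 97 at 5 days (all genes 49.6%), since the ratio turned negative in Sdhc at 3 days and in 15 genes at 5 days. At least 2-fold lower at 5 days were then 21 of 97 (21.6%), against 9.39% of all genes. From 3 to 5 days, 60 of 97 were lower with TMM scaling (all genes 47.4%) and the median was −0.07 (all genes 0.03), which means that the partial return at 5 days is seen with the deposited RPKM and not with TMM scaling. Of all genes past 2-fold at 5 days against 0 days, 26.4% were lower with the deposited RPKM and 57.7% with TMM scaling. At 3 days the split was 34.0% and 47.9%, and from 3 to 5 days 66.8% and 91.4%.

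Counting error was small for most of these genes. The exact 95% interval (Clopper-Pearson) of the ratio of the 2 counts lay below 0 in 76 of 97 genes at 3 days (all genes 26.0%), above 0 in 3 (all genes 41.5%) and around 0 in 18. At 5 days against 0 days it lay below 0 in 59 (all genes 22.3%), above 0 in 20 (all genes 55.6%) and around 0 in 18. From 3 to 5 days it lay below 0 in 10 (all genes 15.5%), above 0 in 49 (all genes 54.5%) and around 0 in 38. Over the 3 libraries, 64 genes were lowest at 3 days and 27 at 5 days with the deposited RPKM, whereas with TMM scaling 32 were lowest at 3 days and 60 at 5 days. With the deposited RPKM the highest value was that of 0 days in 69 genes and that of 5 days in 28, and it was that of 3 days in 0 genes. The shares of all genes with these patterns were not computed. From 3 to 5 days, 72.9% of all genes were higher with the deposited RPKM, and 47.4% were lower with TMM scaling.

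**Figure D2:**
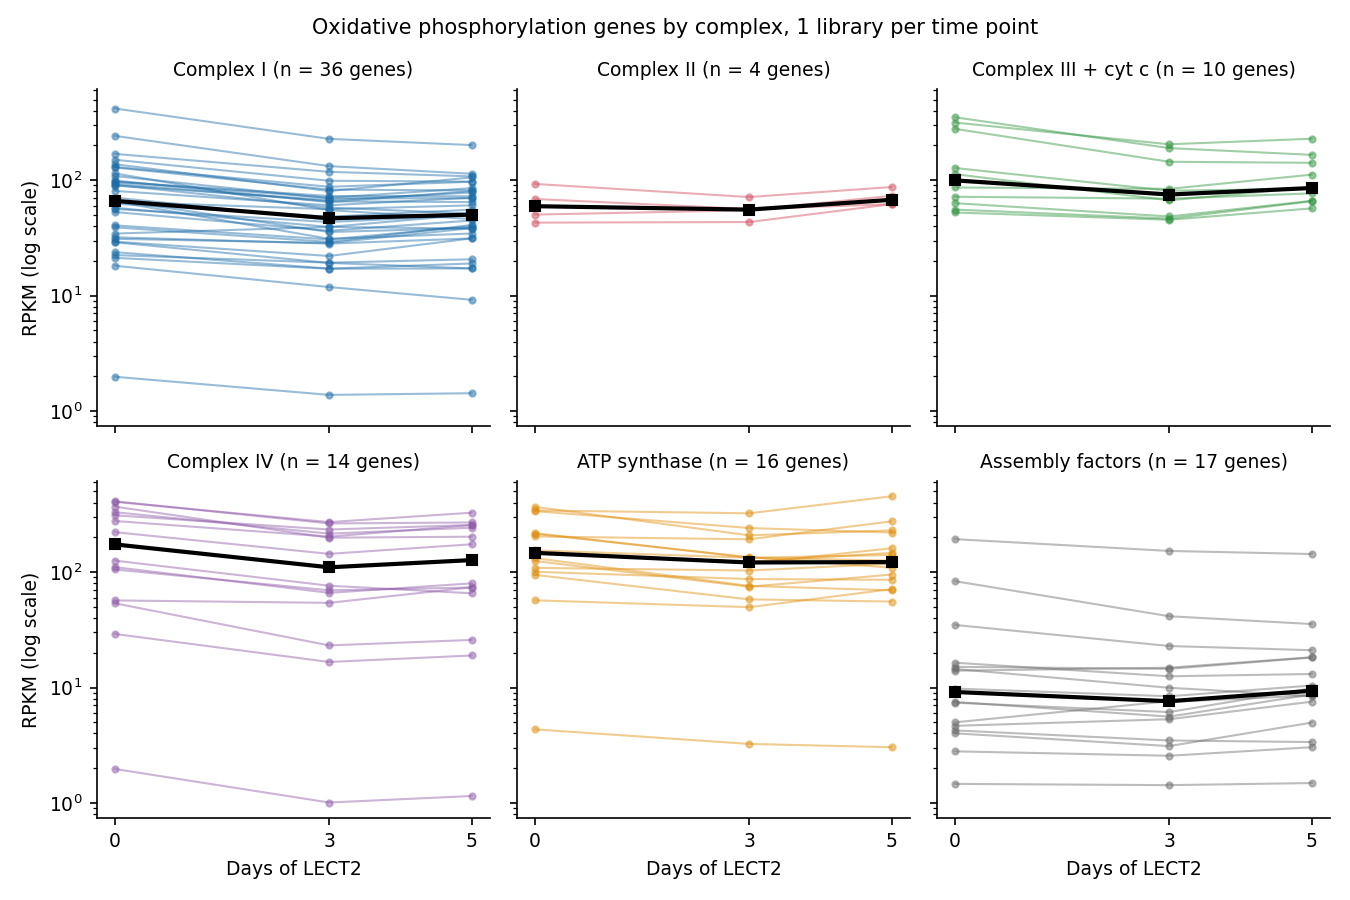
RPKM (log scale) of each expressed oxidative phosphorylation gene at 0, 3 and 5 days of LECT2, in 1 library per time point, with a line per gene and the median of each panel in black. With the deposited RPKM plotted here 64 of the 97 genes are lowest at 3 days, and with TMM scaling 32 are. The matching shares of all genes were not computed.

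Complex I was represented by 36 genes, 7 for the core subunits that carry the flavin and the iron-sulphur clusters and 29 for accessory subunits. Its RPKM summed to 3068, 2012 and 2112 at 0, 3 and 5 days. The ratio was below 0 in 35 of the 36 genes at 3 days (all genes 42.3%) and in 32 at 5 days (all genes 32.4%). The median log2 ratio of the core subunits was −0.46 at 3 days and −0.18 at 5 days, and that of the accessory subunits −0.55 and −0.43. The accessory subunits are the shorter genes, with a median length of 587 bases against 1472 in the core. After adjustment for gene length, described below, the order was the opposite, with −0.14 and −0.12 in the core and −0.03 and 0.08 in the accessory subunits.

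Among the core subunits, Ndufv1, which binds NADH, was at 31.1, 28.6 and 38.5 RPKM at 0, 3 and 5 days, with a log2 ratio of 0.31 at 5 days (95% interval 0.17 to 0.45), the only core subunit above 0 there. Its partner Ndufv2 was at 109, 69.6 and 69.8 RPKM. Ndufv1 and Ndufv2, which stand side by side in the same module of the complex, thus differed in direction at 5 days, whereas with TMM scaling Ndufv1 was at −0.001 there. Ndufs8 had only 25, 17 and 18 reads on the row used here, with 30, 23 and 23 on its 3 rows together, and its levels of 1.98, 1.38 and 1.42 RPKM were far below those of the other core subunits, which were at 28.2 RPKM or more in every library. Whether reads of Ndufs8 were lost in the counting was not tested.

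Ndufa3, Ndufb7 and Ndufb11 were the most abundant accessory subunits. Ndufa3 was at 418, 228 and 201 RPKM, and Ndufb7 at 242, 132 and 114 RPKM. Ndufb11 was at 169, 118 and 108 RPKM, and all 3 genes were lowest at 5 days. Ndufa2, at 114, 55.0 and 46.1 RPKM, had the lowest ratio of all the oxidative phosphorylation genes at 5 days, with a log2 ratio of −1.06 at 3 days (−1.22 to −0.89) and −1.31 at 5 days (−1.49 to −1.14). Ndufa5, at 65.4, 31.0 and 34.5 RPKM, was also at least 2-fold lower at 3 days, at −1.07 (−1.29 to −0.86). In contrast, Ndufa10 was higher in both comparisons with 0 days, at 34.5, 39.3 and 50.5 RPKM, with log2 ratios of 0.19 (0.04 to 0.35) and 0.55 (0.41 to 0.70). Ndufc1, with the deposited RPKM, returned from 39.1 RPKM at 0 days and 29.2 at 3 days to 40.9 at 5 days. Ndufs5 was at 18.1, 11.9 and 9.19 RPKM and had the lowest ratio from 3 to 5 days, at −0.36, although its interval of −0.82 to 0.08 included 0.

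The 4 genes of complex II, which is also the succinate dehydrogenase of the TCA cycle, stood nearest to the median of all genes at 5 days among the complexes. Their RPKM summed to 255, 226 and 285 at 0, 3 and 5 days. Sdha, the flavoprotein, was at 50.3, 54.9 and 73.2 RPKM, with log2 ratios of 0.13 (0.04 to 0.21) and 0.54 (0.46 to 0.62). Sdhc, a membrane anchor, was at 42.9, 43.4 and 62.0 RPKM, with 0.02 (−0.13 to 0.16) and 0.53 (0.40 to 0.67). The iron-sulphur subunit Sdhb, at 92.8, 71.5 and 87.3 RPKM, and the other anchor Sdhd, at 68.7, 56.3 and 62.0 RPKM, had lower levels at 3 days, with log2 ratios of −0.38 (−0.49 to −0.27) and −0.29 (−0.40 to −0.17). At 5 days they were at −0.09 (−0.19 to 0.01) and −0.15 (−0.26 to −0.04), so that the interval of Sdhb included 0. The 4 subunits therefore did not share a direction with the deposited RPKM, neither among the catalytic subunits nor among the anchors.

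In complex III, the RPKM of 9 genes summed to 1462, 935 and 1028 at 0, 3 and 5 days. All 9 were lower at 3 days (all genes 42.3%). The small subunits had the lowest ratios. Uqcrh, the hinge protein that contacts cytochrome c1, was at 351, 190 and 166 RPKM, with log2 ratios of −0.89 (−0.98 to −0.80) and −1.08 (−1.17 to −0.99). Uqcrq was at 278, 144 and 142 RPKM, and Uqcrb at 316, 205 and 229 RPKM. The large core subunit Uqcrc1, in contrast, was at 86.5, 84.1 and 112 RPKM, with −0.04 (−0.13 to 0.05) and 0.37 (0.29 to 0.45). Cyc1, which encodes cytochrome c1, was at 55.6, 46.4 and 65.8 RPKM. Its log2 ratio at 5 days was 0.24, but −0.07 with TMM scaling. In RPKM, the Uqcrc1 level was 0.246 times that of Uqcrh at 0 days, 0.443 times at 3 days and 0.674 times at 5 days. The log2 ratio between libraries varied with gene length, as described below, and these levels were not adjusted for it. The complex III genes span 436 to 1882 bases. Cycs, the gene of the mobile carrier cytochrome c, was at 52.5, 45.4 and 57.0 RPKM, and its log2 ratio at 5 days was 0.12 (0.04 to 0.20), but −0.19 with TMM scaling.

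In complex IV, the median at 3 days was near that of complex III, at −0.63 against −0.62. Its 14 expressed nuclear genes were all lower at 3 days (all genes 42.3%). At 5 days 13 were lower (all genes 32.4%), with a median of −0.49. Of the 14 genes, 13 are shorter than 800 bases. Of other genes under 500, of 500 to 599 and of 600 to 799 bases, 75.9%, 89.6% and 87.3% were lower at 3 days. The RPKM of complex IV summed to 2811, 1838 and 2069 at 0, 3 and 5 days. Cox5b was at 407, 271 and 327 RPKM, Cox6b1 at 411, 264 and 269 RPKM, and Cox4i1 at 331, 216 and 243 RPKM. These abundant structural subunits surround the mitochondrially encoded core, and all 3 were lowest at 3 days with the deposited RPKM, but Cox6b1 and Cox4i1 were lowest at 5 days with TMM scaling (log2 ratios from 3 to 5 days of −0.20 and −0.05). Cox8a was at 311, 234 and 256 RPKM. Cox6c was at 369, 199 and 203 RPKM, with −0.89 (−0.98 to −0.80) and −0.86 (−0.95 to −0.78). The exception at 5 days was Cox7b, at 56.9, 54.2 and 73.9 RPKM, with −0.07 (−0.20 to 0.06) and 0.38 (0.26 to 0.50). Ndufa4, first named as a complex I protein and now placed in complex IV, was at 222, 144 and 174 RPKM. Cox7b is the longest gene of the complex, at 1176 bases, where the median is 548.

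Several subunits of complex IV and the c ring have paralogues that are used in different tissues. Cox6a1, the general form, was at 277, 203 and 256 RPKM, and Cox6a2, the form of heart and skeletal muscle, at 53.7, 23.2 and 25.9 RPKM. Cox6a2 therefore made up 16.2% of the RPKM of the pair at 0 days, 10.2% at 3 days and 9.18% at 5 days, and its log2 ratio of −1.21 at 3 days (−1.44 to −0.99) was the lowest of all the oxidative phosphorylation genes at that time. Both intervals of Cox6a2 against 0 days lay below those of Cox6a1, which were −0.54 to −0.36 and −0.20 to −0.03, and the lengths are near each other, at 678 and 533 bases. Cox6b2, known from testis, was at 29.1, 16.7 and 19.0 RPKM and made up 6.62%, 5.93% and 6.57% of the Cox6b pair. Other tissue forms were scarcely counted. Cox7a1 had 12, 6 and 7 reads, Cox4i2 had 6, 2 and 7, Cox8b had 0, 0 and 1, and Ndufa4l2 had 1, 1 and 0, and the last 3 fell under the minimum of 1 RPKM. Of the Cox7a genes, Cox7a2 was at 126, 76.3 and 65.6 RPKM. Cox7a2l, a supercomplex factor, was at 193, 153 and 144 RPKM.

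The c ring of the ATP synthase is encoded by 3 genes that give the same mature protein. Atp5g2, the most abundant, was at 368, 208 and 230.2 RPKM, Atp5g3 at 125, 74.8 and 95.3 RPKM, and Atp5g1 at 57.0, 49.7 and 71.3 RPKM. The part of Atp5g1 in the summed RPKM was 10.4% at 0 days, 14.9% at 3 days and 18.0% at 5 days, while that of Atp5g2 was 66.9%, 62.6% and 58.0% and that of Atp5g3 22.7%, 22.5% and 24.0%. The order of the 3 genes was the same in all libraries. With the deposited RPKM the log2 ratio of Atp5g1 was −0.20 at 3 days (−0.36 to −0.04) and 0.32 at 5 days (0.18 to 0.47). For Atp5g2 it was −0.82 (−0.90 to −0.74) and −0.68 (−0.75 to −0.60). TMM scaling moved the median of all genes at 5 days from 0.31 to 0.01. How reads that match several of these genes or their pseudogenes were counted is not given in the sources used here, so that the division between paralogues is uncertain.

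In the ATP synthase, the soluble F1 head had a higher median log2 ratio than the membrane part with its stalk before adjustment for gene length, at −0.08 against −0.49 at 3 days and 0.12 against −0.50 at 5 days. With TMM scaling the median of F1 at 5 days was −0.19 and that of Fo and stalk −0.80. Of the 5 F1 genes, 3 were then lower (all genes 49.6%) in place of 1 (all genes 32.4%). The RPKM of the 5 F1 genes summed to 935, 815 and 1079 at 0, 3 and 5 days, whereas those of the 11 Fo and stalk genes summed to 1819.9, 1247 and 1285. Atp5b, the catalytic beta subunit and by its mean over the libraries the most abundant of all the oxidative phosphorylation genes, was at 343, 323 and 455 RPKM, with log2 ratios of −0.08 (−0.12 to −0.04) and 0.41 (0.37 to 0.45). Atp5a1, the alpha subunit, was at 204, 193 and 276 RPKM, with −0.08 (−0.13 to −0.03) and 0.44 (0.40 to 0.48). Atp5e, the smallest F1 subunit, was at 132, 75.9 and 69.5 RPKM, with −0.80 (−0.96 to −0.64) and −0.93 (−1.09 to −0.76). After length adjustment, Atp5b (1879 bases) was at −0.01 and 0.28, and Atp5e (419 bases) at −0.25 and −0.04. In RPKM, without this adjustment, the Atp5b level was 2.59 times that of Atp5e at 0 days, 4.26 times at 3 days and 6.54 times at 5 days. In contrast, the Atp5a1 level stayed near a fixed part of that of Atp5b, at 0.594, 0.595 and 0.607 times, and Atp5b was at 2.32, 2.71 and 2.82 times the level of Atp5d, the delta subunit. Among Fo and stalk genes, Atp5h was at 338, 241 and 220.3 RPKM, Atp5l at 215, 135 and 109 RPKM, and Atp5j2 at 218, 133 and 126 RPKM. The 5 F1 genes have a median length of 1815 bases and the Fo and stalk genes one of 679 bases. After length adjustment the medians were −0.01 in both at 3 days, and 0.12 in F1 against −0.03 in Fo and stalk at 5 days.

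The 17 assembly and supercomplex factors had lower levels, with a median of 8.39 RPKM, and the widest range of ratios. Cox17, the copper chaperone of complex IV, was at 83.5, 41.5 and 35.5 RPKM, with −1.01 (−1.22 to −0.80) and −1.23 (−1.46 to −1.01). Cox14 was at 34.9, 22.9 and 21.0 RPKM, and Cox16 at 14.5, 9.95 and 8.46 RPKM. In contrast, Cox15, which makes haem A together with Cox10, had the highest ratio of all the oxidative phosphorylation genes in both comparisons with 0 days. It was at 4.99, 7.61 and 9.38 RPKM, with 0.60 (0.42 to 0.80) and 0.90 (0.73 to 1.09), and is the longest gene of the set at 4798 bases. Cox10 was at 7.39, 6.13 and 9.86 RPKM, with −0.27 (−0.51 to −0.04) and 0.41 (0.21 to 0.63), and had the highest ratio from 3 to 5 days at 0.68. Cox18, an insertase, was at 4.66, 5.31 and 7.54 RPKM. Cox19 was at 14.0, 14.9 and 18.3 RPKM. Ndufaf2 was at 7.50, 5.60 and 8.71 RPKM, and Ndufaf4 at 4.01, 3.11 and 4.97 RPKM, both factors of complex I.

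**Figure D3:**
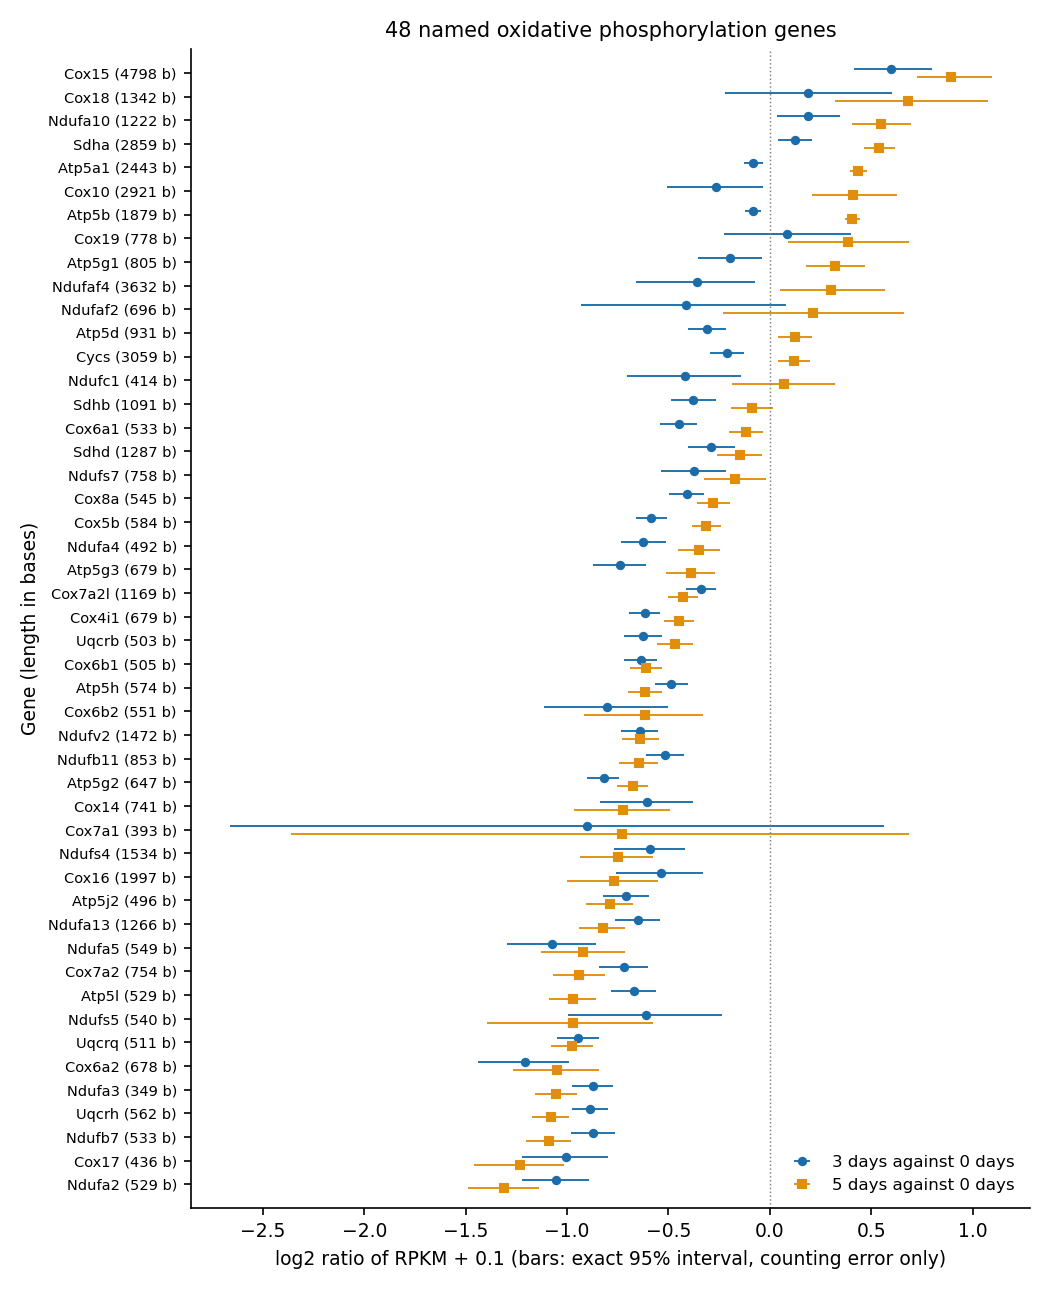
log2 ratio of RPKM + 0.1 against 0 days at 3 days (circles) and 5 days (squares) for 48 named genes that were expressed, ordered by the value at 5 days, with bars for the exact 95% interval of counting error. The short genes Ndufa2, Cox17 and Ndufb7 lie at the low end (−1.31, −1.23 and −1.09 at 5 days) and the long gene Cox15 at the high end (0.90).

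Across these genes the log2 ratio was on the whole higher in longer genes, although genes of near length, such as Cox6a1 and Cox6a2, also differed. The 97 genes had a median length of 758 bases (349 to 4798), against 2696.5 over all genes, and 53.6% of them were shorter than 800 bases, against 5.57% of all genes. Across the 97 genes, Spearman's rho between length and log2 ratio was 0.72 at 3 days, 0.61 at 5 days and 0.33 from 3 to 5 days. Across 9108 other genes in the same length range it was 0.51, 0.45 and 0.14. These are descriptions across genes, which share libraries and depth and are not independent replicates. The relation with the mean level was weaker in the 97 genes, with rho of −0.32, −0.28 and −0.17.

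**Figure D4:**
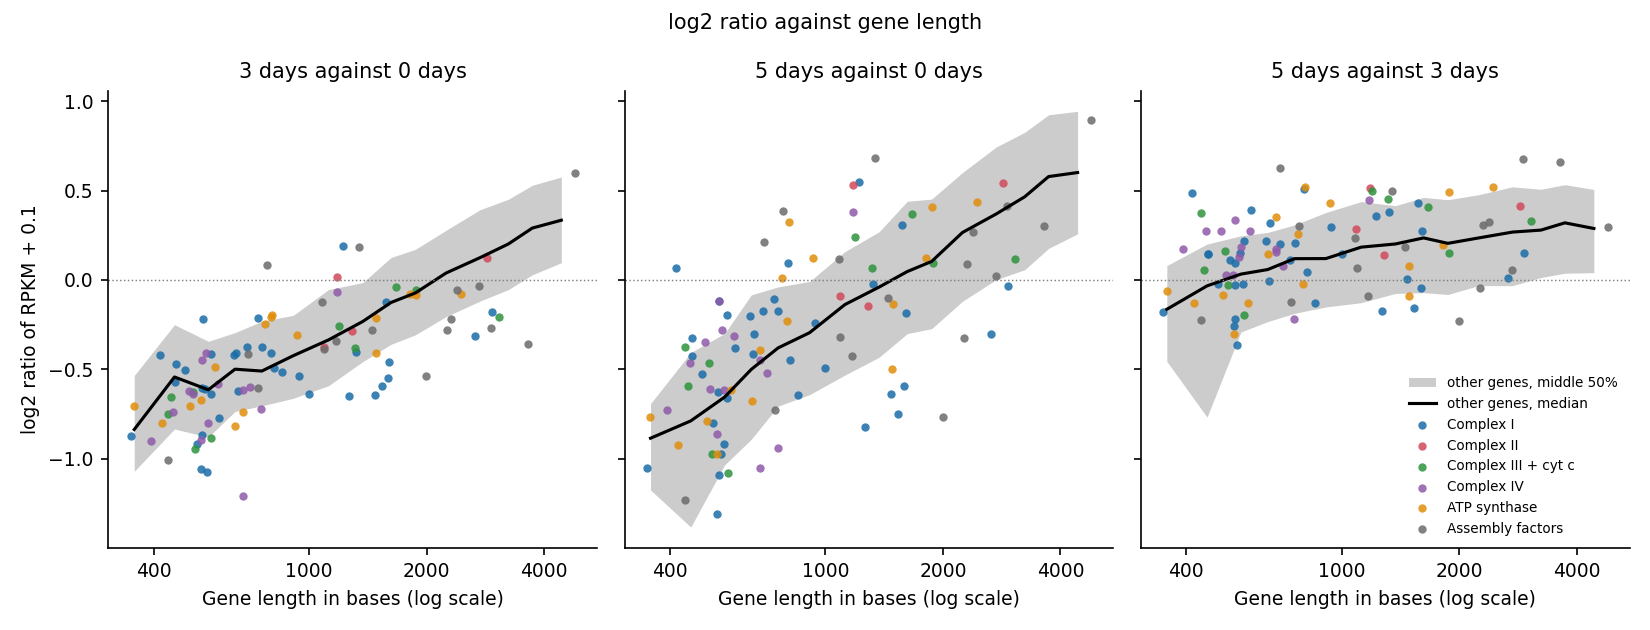
log2 ratio of RPKM + 0.1 against gene length (log scale) for the 97 genes, coloured by complex, with the median (line) and the middle 50% (grey) of other genes of 300 to 5000 bases. The line of the other genes rises with length, from about −0.84 at the shortest to 0.33 at the longest genes at 3 days. The points also rise with length, but at 2000 to 4999 bases their median at 3 days is −0.20, against 0.18 in the other genes.

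In bands of length, the median of the oxidative phosphorylation genes lay below that of other genes in the bands from 1200 bases on in both comparisons with 0 days. In the bands of shorter genes it lay on either side of it at 3 days, and above it in each band at 5 days. Under 500 bases, the median log2 ratio was −0.71 in 14 oxidative phosphorylation genes and −0.54 in 166 other genes at 3 days, and −0.56 against −0.77 at 5 days. At 500 to 599 bases, the median log2 ratio at 3 days was −0.64 in 21 oxidative phosphorylation genes and −0.61 in 96 other genes. At 600 to 799 bases it was −0.42 in 17 and −0.51 in 307, and at 800 to 1199 bases −0.36 in 14 and −0.37 in 835. At 1200 to 1999 bases it was −0.29 in 19 and −0.15 in 2196, and at 2000 to 4999 bases −0.20 in 12 and 0.18 in 5766. Among the 12 long genes, 10 were lower at 3 days (83.3%), against 31.4% of the other genes of this band. At 5 days the median was −0.63 against −0.66 at 500 to 599 bases, −0.30 against −0.42 at 600 to 799 bases, 0.00 against −0.23 at 800 to 1199 bases, −0.10 against 0.03 at 1200 to 1999 bases, and 0.19 against 0.44 at 2000 to 4999 bases. At least 2-fold lower at 5 days were 3 of the 21 genes of 500 to 599 bases (14.3%), against 30.2% of the other genes of that length and 21.7% of those averaging 20 RPKM or more.

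**Figure D5:**
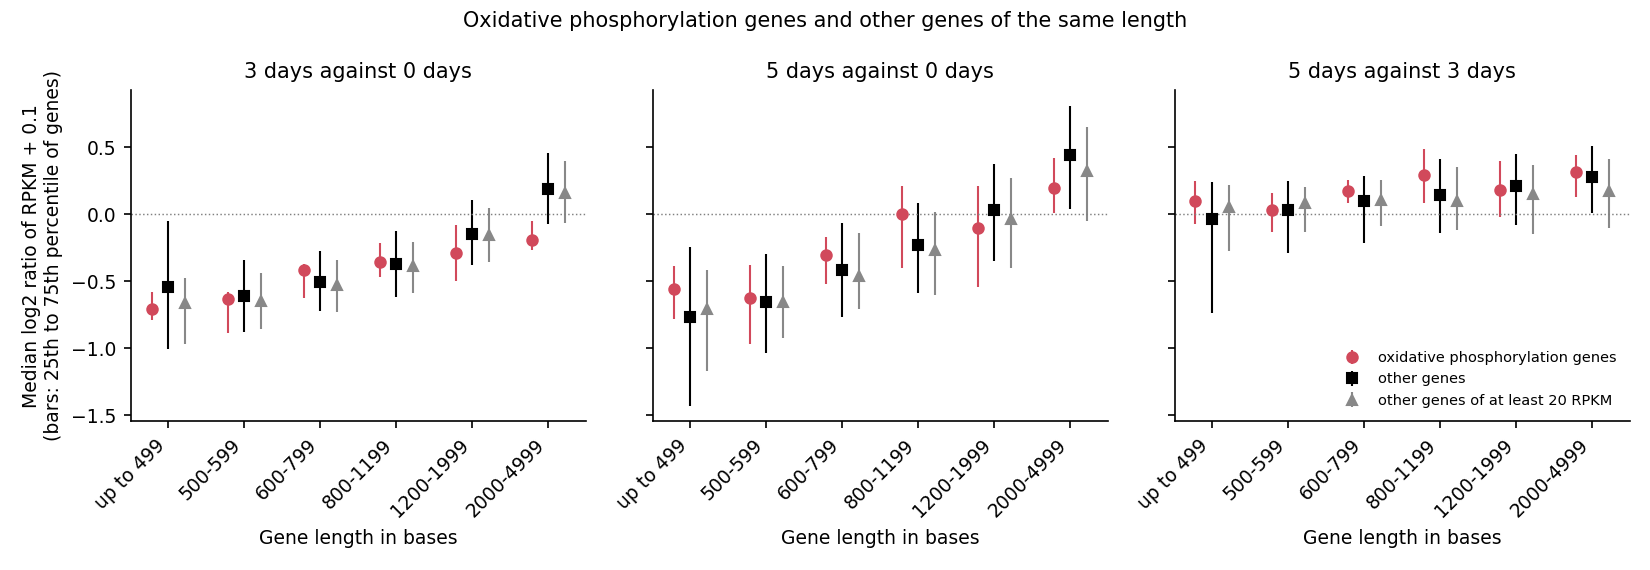
Median log2 ratio of RPKM + 0.1 by band of gene length for the oxidative phosphorylation genes, all other genes and other genes averaging 20 RPKM or more, with bars from the 25th to the 75th percentile of genes. At 2000 to 4999 bases the oxidative phosphorylation genes lie below the other genes at 3 days (−0.20 against 0.18) and at 5 days (0.19 against 0.44).

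Each gene was then set against the median of other genes within 10% of its length. This length-adjusted log2 ratio had a median of −0.06 at 3 days, with 61 of 97 below 0, 0.02 at 5 days, with 44 below, and 0.07 from 3 to 5 days, with 40 below. The median of all genes on this scale was 0.00 in each comparison. By complex, the adjusted medians at 3 and 5 days were −0.05 and 0.02 in complex I, −0.02 and 0.10 in complex II, −0.12 and 0.17 in complex III, −0.09 and 0.16 in complex IV and −0.01 and 0.07 in the ATP synthase. Those of the assembly factors were −0.09 and −0.18. By the median over the 97 genes, the low ratios of the group were thus close to those of other genes of the same length, in these libraries. Single genes ranged from −0.70 to 0.60 at 3 days. The bands from 1200 bases on lay below other genes in both comparisons with 0 days, as given above.

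After the adjustment, the spread among the oxidative phosphorylation genes was compared with that among other genes. The SD of the adjusted log2 ratio over the 97 genes was 0.25 at 3 days, 0.39 at 5 days and 0.22 from 3 to 5 days, whereas over 3851 other genes averaging 20 RPKM or more it was 0.34, 0.66 and 0.54. The range of the middle 50% of genes was nearer, at 0.35, 0.56 and 0.28 against 0.41, 0.65 and 0.50, and no test was made. Of the 97 genes, 77 also had at least 20 RPKM. Highest after adjustment at 5 days were Ndufc1 at 0.99, Cox19 at 0.75 and Cox18 at 0.73, followed by Ndufaf2 at 0.72 and Atp5g1 at 0.68. The log2 ratio of Ndufc1 before adjustment was only 0.07, and it was set against 48 other genes. Lowest after adjustment at 5 days were Cox16 at −0.93, Ndufa13 at −0.75 and Ndufs4 at −0.75. Ndufa13, at 91.0, 57.9 and 51.3 RPKM, and Ndufs4, at 29.0, 19.2 and 17.2 RPKM, are accessory subunits of complex I with longer genes (1266 and 1534 bases) than most others of that class. At 3 days Cox6a2 was lowest at −0.70 and Cox19 highest at 0.60.

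Other sets of genes that are shorter than most, chosen after the values of the libraries were seen, were set beside them. The 77 cytosolic ribosomal protein genes, of a median 708 bases, had median log2 ratios of −0.76 at 3 days and −0.69 at 5 days, and −0.29 and −0.21 after length adjustment. The 76 mitochondrial ribosomal protein genes had −0.41 and −0.07, and −0.08 and 0.13 adjusted. The 37 proteasome subunit genes had −0.34 and −0.03, and −0.04 and −0.01 adjusted. The oxidative phosphorylation genes, at −0.06 and 0.02 adjusted, were nearer to the latter sets than to the cytosolic ribosomal proteins. No test of these differences was made.

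Other genes of the pathway that the naming rule does not take were also examined, beside the shares over all genes of 42.3% lower at 3 days, 32.4% lower at 5 days, and 5.41% at least 2-fold lower and 15.1% at least 2-fold higher at 5 days. With TMM scaling these shares were 48.8%, 49.6%, 9.39% and 6.88%. Of 33 further expressed assembly and electron transfer genes, 21 were lower at 3 days and 14 at 5 days, with medians of −0.09 and 0.32, compared with 0.10 and 0.31 over all genes. At 5 days 1 was at least 2-fold lower, Pet100, at 54.2, 28.8 and 21.9 RPKM, and 2 were at least 2-fold higher, Taco1, a translational activator of mitochondrial Cox1, at 3.53, 5.18 and 8.87 RPKM, and Aifm1, at 7.13, 10.4 and 16.3 RPKM. With TMM scaling the medians were −0.18 and 0.02 (all genes 0.02 and 0.01). Of the 33 genes, 3 were then at least 2-fold lower and 1, Taco1, at least 2-fold higher. The most abundant of them, Atpif1, the inhibitor of the ATP synthase, was at 453, 244 and 266 RPKM. Of 17 TCA cycle genes, 9 were lower at 3 days and 3 at 5 days, with medians of −0.02 and 0.42. With TMM scaling the medians were −0.11 and 0.12, and 13 and 6 of these genes were lower. Among them Dlat, of the pyruvate dehydrogenase complex, had the highest ratio at 5 days, from 8.51 to 15.4 RPKM (log2 ratio 0.85), and Idh3a went from 19.5 to 32.9 RPKM (0.75). Mdh2, the most abundant, was at 143, 137 and 148 RPKM. The adjusted medians of the TCA cycle genes were −0.06 and 0.20.

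Of 17 regulators of mitochondrial biogenesis, 7 were lower at 3 days (all genes 42.3%) and 2 at 5 days (all genes 32.4%). At least 2-fold higher at 5 days were 4 (all genes 15.1%). With TMM scaling 8 and 7 were lower (all genes 48.8% and 49.6%), and 2, Hcfc1 and Pprc1, were at least 2-fold higher (all genes 6.88%). The 4 were Hcfc1, a coactivator of nuclear genes, at 19.4, 34.5 and 60.4 RPKM, Pprc1, a coactivator of NRF1, at 4.29, 6.76 and 12.4 RPKM, Gabpa, the DNA-binding part of GABP, at 11.2, 18.2 and 25.7 RPKM, and Polrmt, the mitochondrial RNA polymerase, at 4.11, 5.58 and 9.44 RPKM. All 4 are long genes of 3762 to 8093 bases, and their log2 ratios at 5 days of 1.64, 1.51, 1.19 and 1.18 were 0.77, 0.82, 0.53 and 0.61 after length adjustment. Yy1 was the most abundant regulator by its mean over the libraries, at 46.0, 49.2 and 52.5 RPKM. Tfam, which packages mitochondrial DNA, was at 7.23, 5.90 and 8.09 RPKM. The 7 carriers and channels of the mitochondrial membranes had medians of −0.30 and 0.08, the latter −0.23 with TMM scaling, and Ucp2, the most abundant, was at 352, 396 and 446 RPKM. Vdac2, a pore of the outer membrane, was at 169, 124 and 121 RPKM, and Slc25a5, an ADP/ATP carrier, at 225, 229.9 and 299 RPKM.

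Markers of marrow cell types also differed between the libraries. All 17 expressed late neutrophil markers were lower at 5 days (all genes 32.4%), their median log2 ratio was −1.98 and their RPKM summed to 150558, 116706 and 41641 at the 3 times. All 27 cell-cycle genes were higher at 5 days (all genes 67.6%), with a median of 0.99, and all 6 promyelocyte markers were higher, with a median of 0.56. With TMM scaling 4 of the cell-cycle genes and 1 of the promyelocyte markers were lower at 5 days (all genes 49.6%), and the medians were 0.68 and 0.25. The 21 erythroid markers had medians of 0.04 and 0.07, or −0.04 and −0.24 with TMM scaling, and a summed level of 6331, 5157 and 2431 RPKM. At 5 days 10 of them were lower (all genes 32.4%) and 11 higher (all genes 67.6%), and 16 were lower with TMM scaling (all genes 49.6%). The 4 at least 2-fold lower (all genes 5.41%) were globin genes. Hba-a1 went from 2253 to 1591 and 596 RPKM. Klf1, which encodes a factor of erythroid development, was at 26.5, 21.4 and 27.8 RPKM. At 3 days, the median of the late neutrophil markers was −0.03, with 9 lower (all genes 42.3%) and 8 higher (all genes 57.7%). That of the cell-cycle genes was 0.18, with 9 lower and 18 higher, and that of the promyelocyte markers −0.16, with 5 of 6 lower. The part of these cell types in the levels of the oxidative phosphorylation genes was not tested.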

How the data were processed

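Oligo(dT)-enriched RNA of BM cells was made into TruSeq libraries and sequenced on an Illumina HiSeq instrument, with 1 library per time point. The authors deposited 3 tables, each of a pair of time points, with whole read counts per gene, a gene length and RPKM. Cufflinks is named for quantitation, and the aligner is not given in the sources used here. The submitters' processing notes name the build mm8, for which no genome was used here. RPKM followed, within 0.1%, from the deposited count, the length and the reads on all genes, except in 18 of 17559 rows at 0 days and 14 at 3 days, none of them an oxidative phosphorylation gene, and 0 reads, listed as 0.01 RPKM, were set to 0. The authors' log2 ratios, P values and false discovery rates were not used.

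Of several rows for 1 name, that of the highest mean level was used. Expressed genes, with 1 RPKM or more on average over the 3 libraries, were described by the log2 ratio of RPKM + 0.1, with exact Clopper-Pearson 95% intervals of the count ratio. The length-adjusted ratio subtracts the median ratio of other genes within 10% of the length. For the shortest genes these were few, such as 11 for Ndufa3 (349 bases) and 14 for Atp5k (356 bases). No test was possible with 1 library per time point. On a gene of 1000 bases, 1 read was worth 0.0644 RPKM at 0 days.

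The genes, gene lists and motifs were chosen with earlier results of these data known. Named genes are the 3 most abundant of each complex, the 3 highest and the 3 lowest ratios in each comparison with at least 30 reads in each library, before and after length adjustment, all genes past 2-fold, and the paralogues. In the other lists the most abundant and the 2 most changed genes at 5 days were named, apart from lists given by their counts only. Other genes given with values, such as Ndufv1, Ndufa8, Ndufs8, Sdhc, Uqcrc1, Cyc1, Cox6c, Cox7b, Atp5e, Tfam and Klf1, and the pairs whose levels are compared, were chosen after their values were seen. Some genes that these rules name are not reported here.

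The alternatives were other pseudocounts, TMM scaling (edgeR 4.0.16), median-of-ratios scaling (DESeq2 1.42.0), scaling without the 100 most abundant genes, summed rows, other minima, a fold of 1.5, other length windows and a lowess trend on gene length (span 0.3, statsmodels 0.14.6). The log2 ratios, their intervals and the length adjustment were tested on simulated data, and the other steps were not. All steps ran in R 4.3.3 and Python 3.11.15 (scipy 1.17.1, numpy 2.4.6, pandas 2.3.3, matplotlib 3.10.9).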

Additional observations from a re-analysis of the deposited data

How the results depend on the processing

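Of 186 values recomputed under the alternatives, 138 stayed near the main value and 48 moved further. For a median, near means within the counting error of a typical single gene, which is not the error of a median over genes. This was the median half-width of the intervals, 0.145 at 3 days, 0.140 at 5 days and 0.150 from 3 to 5 days. For a count, near means within 1.5 times, and for a share of reads within its interval. Each value rests on 1 library per time point, so the spread between mice is unknown and leaving out a library was not possible. No paired analysis was possible because each time point has 1 library and the labels give no replicate numbers. The cause of the values below was not tested, apart from counts that were lower or higher because fewer or more genes were counted.

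With TMM scaling the median log2 ratio of the oxidative phosphorylation genes was −0.63 at 5 days against 0 days and −0.070 from 3 to 5 days, and 21 of them were at least 2-fold lower at 5 days. Of all genes at 5 days, 1046 were then at least 2-fold lower and 767 higher, and 49 were higher from 3 to 5 days. With median-of-ratios scaling these values were −0.62, −0.064, 21, 1027, 792 and 51. Without the 100 most abundant genes the median at 5 days was −0.52 and 15 oxidative phosphorylation genes were at least 2-fold lower, and of all 11144 genes 866 were lower and 1023 higher at 5 days and 95 from 3 to 5 days. Their share of the reads outside the 100 most abundant genes was 1.17% at 0 days, 0.822% at 3 days and 0.890% at 5 days. With the deposited RPKM the counts of all genes at least 2-fold lower and higher were 219 and 426 at 3 days, 603 and 1685 at 5 days and 371 and 184 from 3 to 5 days.

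With the lowess trend on gene length removed, the median of the oxidative phosphorylation genes was −0.054 at 3 days and 0.0082 at 5 days, and 0 of them passed 2-fold downward at 3 days and 0 at 5 days. Of all genes, 152 were then at least 2-fold lower and 257 higher at 3 days, 782 and 519 at 5 days and 535 and 50 from 3 to 5 days. With a threshold of 1.5-fold, 37 of 97 oxidative phosphorylation genes were lower and 1 higher at 3 days (all genes 9.19% and 16.3%), 31 lower and 2 higher at 5 days (all genes 11.7% and 34.1%), and 3 higher from 3 to 5 days (all genes 16.5%). With a pseudocount of 1, 106 of all genes were at least 2-fold lower and 184 higher at 3 days, 1123 higher at 5 days and 46 higher from 3 to 5 days. With a minimum mean of 10 RPKM, 61 were lower and 126 higher at 3 days, 315 and 617 at 5 days, and 211 and 29 from 3 to 5 days. With no minimum, 688 were lower and 830 higher at 3 days, 1180 lower at 5 days, and 717 lower and 578 higher from 3 to 5 days. The oxidative phosphorylation genes at least 2-fold higher then numbered 1 at 5 days and 2 from 3 to 5 days, and these 2 genes, Cox8b and Cox4i2, had 7 reads or fewer per library.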
